A study of Mus musculus with 10 samples.

Results

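The genes described here mark the wall of the brain's blood vessels: 20 endothelial genes, including those of the blood-brain barrier, 5 pericyte genes, 3 smooth muscle genes and 4 fibroblast genes. They were chosen by gene symbol, with earlier results of these data known. All 32 of them were found by Ensembl ID among the 43629 genes of the count table. RNA sequencing measured them in the total hippocampus of 10 male mice, labelled as 18 weeks old, of the labelled strain C57BL/6J.129P2, which had been backcrossed to C57BL/6JNimr. The 5 Dp1Tyb mice carry Dp(16Lipi-Zbtb21)1TybEmcf, a germline duplication of a segment of chromosome 16 that models Down syndrome, so that each gene of the segment is present in an extra copy in every cell. The 5 wild-type (WT) mice were littermates without it, and each mouse gave 1 library.

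Brain endothelial cells line the capillaries and form the blood-brain barrier: tight junctions seal the gaps between them, and transporters in their membranes carry glucose, lactate, lipids and hormones across while efflux pumps return drugs to the blood. Pericytes sit on the capillary wall under the same basement membrane, smooth muscle cells encircle arterioles, and fibroblasts lie around larger vessels and in the meninges. Mural cells are recruited by endothelial signals and in turn help to keep the barrier closed.

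Total counts were 18227684 to 43692270 per library, and the 32 genes were present in all 10 libraries, at 54 to 4334 counts. Levels are given as CPM, the counts of a gene relative to the total of its library after scaling by the trimmed mean of M-values (TMM), and differences as the log2 fold change of Dp1Tyb over WT with its standard error, from the quasi-likelihood F-test of edgeR over 17237 tested genes. Adjusted p-values are those of Benjamini and Hochberg over all of these genes, with 0.05 as the threshold. The hippocampal markers Prox1, Dsp, C1ql2, Wfs1, Fibcd1 and Zbtb20 all had at least 1025 counts in each library. Libraries differed in choroid plexus, the tissue that makes cerebrospinal fluid and borders the hippocampus: its 10 markers summed to 429 to 5454 CPM in WT, but to only 42.9 in Dp1Tyb 1 and 51.3 in Dp1Tyb 4, against 1451 to 3884 in the other Dp1Tyb mice. None of these markers was at 0 in any library, and the lowest was Tmem72, at 1 count. In bulk tissue, fewer cells of a type and less RNA per cell cannot be told apart.

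None of the 32 vascular genes passed the threshold between the genotypes, with adjusted p-values from 0.132 for Rgs5 to 0.966. Across all tested genes, 1.11% passed, 150 higher and 41 lower in Dp1Tyb. Another test, limma-voom, also called 0 of the 32. DESeq2, which called 3.20% of the genes it tested, called 1 of the 32, Rgs5, higher in Dp1Tyb. At an unadjusted p under 0.05, 6 genes were lower in Dp1Tyb (Cldn5, Flt1, Slco1a4, Abcb1a, Emcn and Pdgfrb), against 6.40% of all tested genes, and 1 was higher (Rgs5), against 7.97%, which makes 14.4% in either direction. No gene had CPM values that failed to overlap between the genotypes, which 3.68% of all tested genes did.

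The estimated differences were small in size. Of the 32 estimates, 20 were below 0 and 12 above, where 8842 of the 17237 tested genes were below 0, with a median of -0.07 beside -0.0041 over all tested genes. For 28 genes the whole 95% confidence interval lay within a 1.5-fold difference in either direction, and the 4 whose intervals reached it were Emcn, Col1a1, Col1a2 and Dcn. By class, the median log2 fold change was -0.07 for the endothelial, -0.14 for the pericyte, 0.06 for the smooth muscle and -0.06 for the fibroblast genes. The last 2 medians had no stable sign: that of the smooth muscle genes was -0.054 without Dp1Tyb 1, and that of the fibroblast genes was 0.11 without WT 3 and 0.13 with the choroid plexus level as a covariate.

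**Figure D1:**
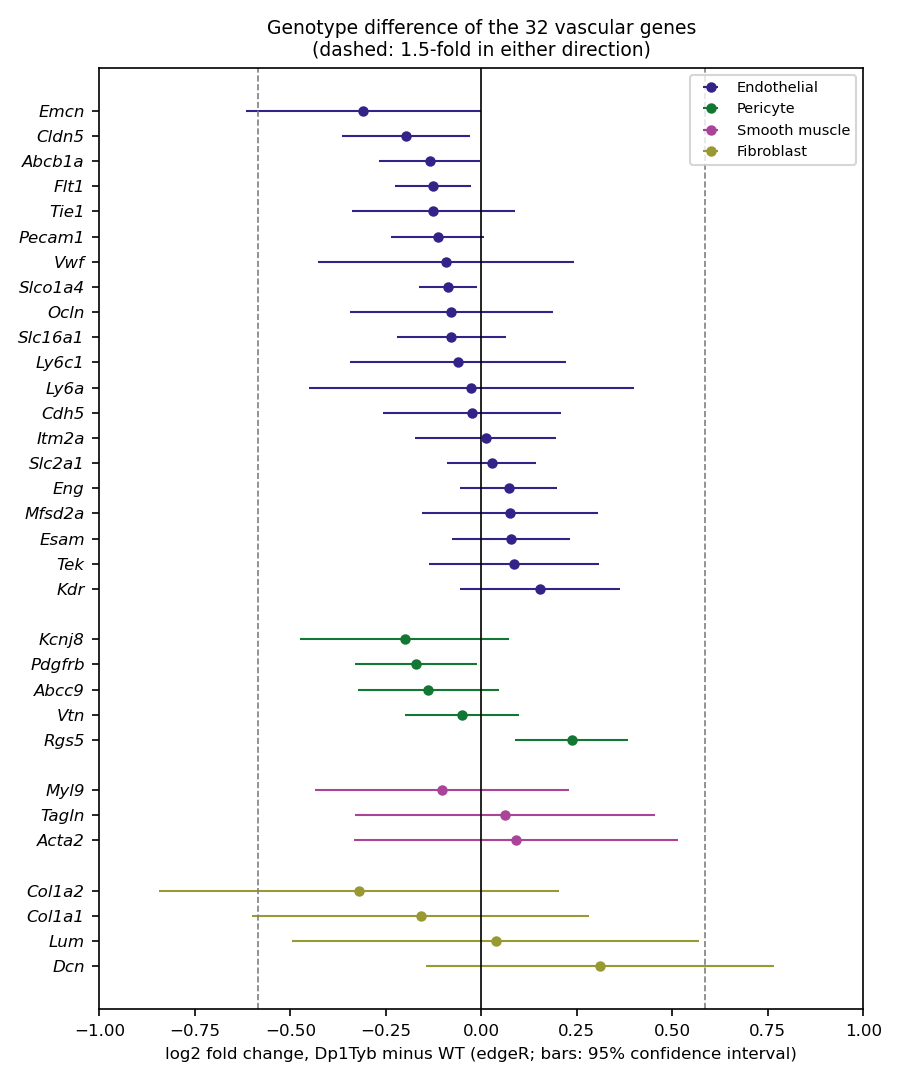
Log2 fold change of each of the 32 genes, Dp1Tyb over WT (x axis; points are edgeR estimates and bars their 95% confidence intervals), by cell class. No gene passed the adjusted threshold; 28 intervals lie within the dashed lines at 1.5-fold, and those of Emcn, Col1a1, Col1a2 and Dcn cross them.

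To let the genes be read beside their control regions, stretches of the promoters of 4 of them were taken from RefSeq on GRCm38.p6, each covering the bases 250 to 51 before the start site on the strand of the gene. Cldn5 and Flt1 are shown as the endothelial genes with the smallest p-values, and Rgs5 as that of the pericytes. Myl9 is shown as the 1 of 2 smooth muscle genes with a window that matched the CArG box. Capitals mark a motif. The windows are chr16:18776597-18776796 on the plus strand, chr5:147726062-147726261 on the minus strand, chr1:169655251-169655450 on the plus strand and chr2:156775214-156775413 on the plus strand.
Cldn5: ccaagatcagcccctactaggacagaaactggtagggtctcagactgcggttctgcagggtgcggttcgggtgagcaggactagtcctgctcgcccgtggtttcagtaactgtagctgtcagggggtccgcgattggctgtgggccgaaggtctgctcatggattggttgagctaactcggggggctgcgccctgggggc
Flt1: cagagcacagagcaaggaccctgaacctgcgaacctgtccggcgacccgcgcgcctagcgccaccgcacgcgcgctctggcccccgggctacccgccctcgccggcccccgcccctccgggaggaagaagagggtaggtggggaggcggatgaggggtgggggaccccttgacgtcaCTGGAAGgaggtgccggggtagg
Rgs5: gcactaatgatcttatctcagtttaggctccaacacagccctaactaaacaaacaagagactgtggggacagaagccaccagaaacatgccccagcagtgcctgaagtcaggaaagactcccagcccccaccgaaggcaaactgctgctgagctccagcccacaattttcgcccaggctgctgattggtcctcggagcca
Myl9: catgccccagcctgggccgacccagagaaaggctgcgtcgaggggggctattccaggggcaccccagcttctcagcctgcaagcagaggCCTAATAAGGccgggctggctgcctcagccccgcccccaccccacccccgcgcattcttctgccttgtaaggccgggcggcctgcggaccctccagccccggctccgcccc
Motifs were searched on both strands of windows of 300 bases, 250 before to 50 after the start site, and were chosen after the expression values were known. The ETS motif CNGGAAG, a sequence bound by ETS factors of endothelial cells, was in the windows of 5 of the 22 genes with a RefSeq window, namely Emcn, Flt1, Itm2a, Slc16a1 and Tie1, and in 31.9% of all 32851 windows. In Flt1 its first base lies 73 before the start site. A match to the CArG box, bound by serum response factor in smooth muscle, was in 1 window of the 22 genes, that of Myl9. It lies 161 before the start site, and 1.63% of all windows held a match. Acta2 had a window without a match, and Tagln had no window. A site that departs from the searched pattern would not have been counted. No window of the 32 genes held both motifs, so they did not overlap there, and a match is a description of the letters, not of binding. Windows were not printed or searched for Pdgfrb, Ly6a, Cdh5, Col1a1, Pecam1, Esam, Tagln, Dcn, Lum and Vwf.

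Among the junction and adhesion genes of the 32, which are Cldn5, Pecam1, Cdh5, Ocln and Esam, the estimate farthest below 0 was that of Cldn5, which encodes claudin-5, the main strand-forming protein of barrier tight junctions. Cldn5 lies on chromosome 16 (chr16:18776847-18778262, GRCm38) but outside the duplicated segment. Its CPM values in WT 1 to 5 were 36.9, 36.4, 34.05, 36.5 and 43.1, and in Dp1Tyb 1 to 5 they were 30.8, 35.2, 29.1, 30.8 and 37.4. Dp1Tyb 1, 3 and 4 were below every WT mouse, whereas Dp1Tyb 2 and 5 lay within the WT range. The log2 fold change of Cldn5 was -0.20 ± 0.077 (95% confidence interval -0.36 to -0.031; edgeR adjusted p = 0.275).

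Pecam1, the adhesion molecule CD31 at endothelial contacts, did not pass the test either. Its CPM values were 21.2, 20.1, 20.8, 21.9 and 22.5 in WT 1 to 5 and 20.8, 20.4, 18.8, 18.4 and 20.03 in Dp1Tyb 1 to 5. The Dp1Tyb mice filled the lower side of the WT range, with Dp1Tyb 3, 4 and 5 just under it, and the log2 fold change was -0.11 ± 0.057 (edgeR adjusted p = 0.380). VE-cadherin, the adherens junction protein encoded by Cdh5, was at 13.2, 11.9, 14.96, 17.7 and 13.4 CPM in WT 1 to 5 and at 14.9, 11.5, 14.2, 14.97 and 14.6 CPM in Dp1Tyb 1 to 5. WT 4 was highest and Dp1Tyb 2 lowest, the groups overlapped almost fully, and the log2 fold change of Cdh5 was -0.024 ± 0.11 with an interval of -0.26 to 0.21. Occludin, encoded by Ocln and another membrane protein of tight junctions, spanned 13.2 to 19.4 CPM in WT and 12.5 to 18.4 in Dp1Tyb. Esam, an endothelial adhesion molecule, spanned 15.6 to 18.8 CPM in WT and 16.7 to 20.3 in Dp1Tyb. With the choroid plexus level as a covariate the estimate of Ocln changed sign, to 0.087. The log2 fold changes were -0.079 ± 0.12 for Ocln and 0.077 ± 0.071 for Esam, and neither gene differed beyond the spread between mice.

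The estimates for the receptors of angiogenic signals did not share a direction. Flt1 (chr5:147561604-147726011) encodes VEGF receptor 1, which binds VEGF with high affinity and limits its access to the signalling receptor. Flt1 in WT 1 to 5 stood at 70.2, 73.6, 63.1, 71.5 and 70.2 CPM, and in Dp1Tyb 1 to 5 at 63.6, 60.3, 67.3, 64.01 and 64.4 CPM. WT 3 was within the Dp1Tyb range, the other 4 WT mice were above every Dp1Tyb mouse, and the log2 fold change was -0.13 ± 0.046 (95% confidence interval -0.23 to -0.026; edgeR adjusted p = 0.244). Kdr, the signalling VEGF receptor 2, had CPM of 15.9 to 23.04 in WT and 19.5 to 24.6 in Dp1Tyb and an estimate above 0, 0.15 ± 0.097 (edgeR adjusted p = 0.494). Tek, the angiopoietin receptor Tie2, was at 13.6 to 20.6 CPM in WT and 15.3 to 18.7 in Dp1Tyb, a log2 fold change of 0.086 ± 0.10. Its partner receptor Tie1 was at 12.3 to 18.6 CPM in WT and 13.3 to 14.7 in Dp1Tyb, a log2 fold change of -0.13 ± 0.099. Endoglin, the TGF-beta co-receptor encoded by Eng, had levels of 21.7 to 25.2 CPM in WT and 23.2 to 26.6 in Dp1Tyb, with a log2 fold change of 0.072 ± 0.059. For these 5 receptors the genotype ranges overlapped.

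Of the 5 barrier transporters, 4 varied little between mice, with within-genotype SDs of 0.031 to 0.11 on the log2 scale beside a median of 0.18 over the 32 genes; the exception was Mfsd2a, at 0.20. Slco1a4 encodes an organic anion transporter of the capillary wall, and its SD was the smallest of all 32. Slco1a4 in WT 1 to 5 was at 58.6, 58.95, 59.04, 57.9 and 56.05 CPM, and in Dp1Tyb 1 to 5 at 54.4, 54.8, 56.6, 54.4 and 53.3 CPM. Every Dp1Tyb mouse but Dp1Tyb 3 was below the WT range, yet the step was slight, at -0.087 ± 0.036 (95% confidence interval -0.16 to -0.01; edgeR adjusted p = 0.292). Abcb1a, which encodes the efflux pump P-glycoprotein, had CPM of 32.3 to 38.99 in WT and 29.8 to 35.7 in Dp1Tyb, where 4 of 5 mice were below all WT mice. Its log2 fold change was -0.13 ± 0.061 (edgeR adjusted p = 0.342).

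The carriers of nutrients overlapped between the genotypes. Slc2a1, the glucose transporter GLUT1, had CPM values of 74.7, 66.7, 60.1, 67.3 and 67.4 in WT 1 to 5 and of 69.6, 65.5, 68.6, 66.3 and 73.4 in Dp1Tyb 1 to 5. All 5 Dp1Tyb values fell inside the WT range, and the log2 fold change of 0.028 ± 0.054 had a confidence interval of -0.089 to 0.14. Slc16a1, the lactate and ketone carrier MCT1, was at 35.1 to 45.3 CPM in WT and 37.2 to 42.6 in Dp1Tyb, a log2 fold change of -0.078 ± 0.066. Mfsd2a, which carries docosahexaenoic acid into the brain, was at 11.7 to 19.3 CPM in WT and 15.7 to 17.97 in Dp1Tyb, a log2 fold change of 0.076 ± 0.11. The low end of the WT range of both Slc2a1 and Mfsd2a was WT 3.

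**Figure D2:**
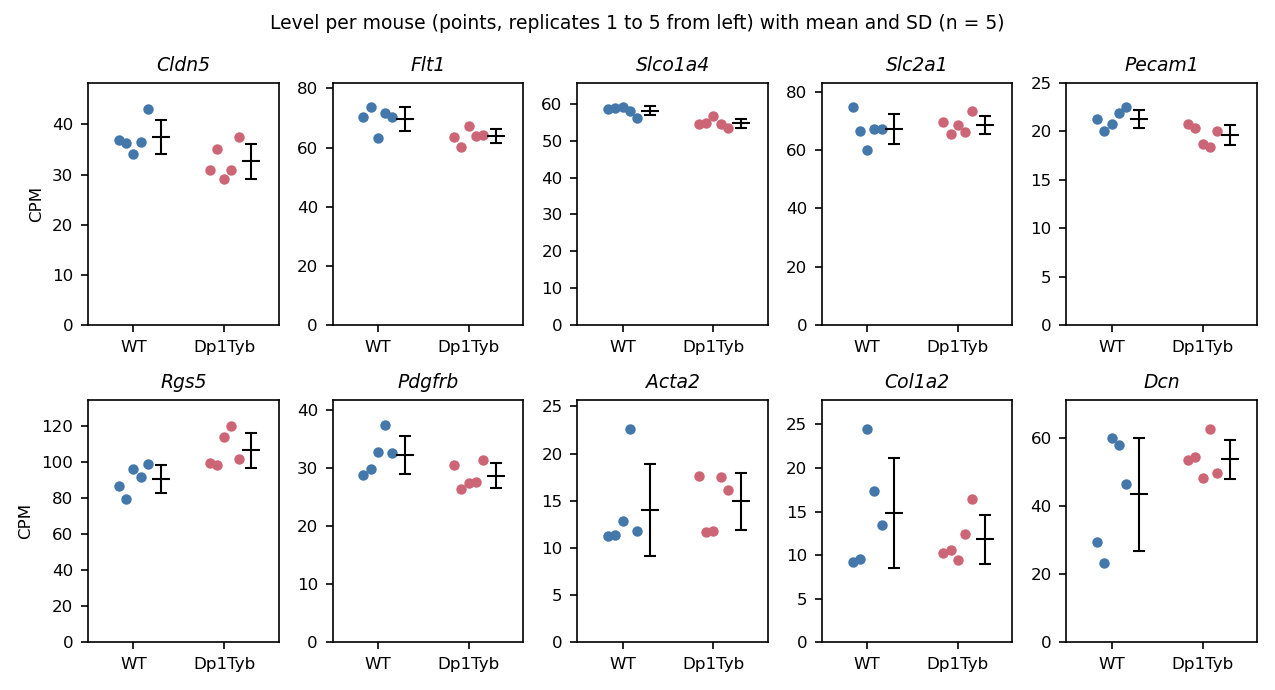
CPM per mouse (y axis, from 0) of 10 of the genes in WT and Dp1Tyb, with points for replicates 1 to 5 from left to right and a bar for the mean and SD of each genotype (n = 5). The points of Slco1a4 and Slc2a1 are tight; Acta2 has 1 high WT mouse, and Dcn in WT runs from 23.5 to 60.2 CPM.

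Several of the transporter and surface genes have near copies, and reads that aligned to more than 1 place had been discarded, so their levels are uncertain. Of the copies of Slco1a4, Slco1a1 had 0 counts in all libraries, Slco1a6 had 6 to 22 counts and Slco1a5 had 6 to 52 counts. Abcb1b, the copy of Abcb1a, was at 3.73 to 6.03 CPM in WT and 4.96 to 5.91 in Dp1Tyb, with a log2 fold change of 0.096 ± 0.13. Ly6c2 had 0 to 5 counts beside 328 to 985 of Ly6c1, and Ly6e, a relative of both Ly6 genes below, had a log2 fold change of 0.033 ± 0.054. None of the 4 copies tested passed the edgeR threshold or an unadjusted p of 0.05. Exons of Slc2a1, Abcb1a, Eng, Abcc9 and Tagln overlap a gene on the opposite strand, and since the strand setting of the counting is not given in the sources used here, these 5 are uncertain as well.

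The remaining endothelial genes encode surface and secreted proteins, and of these Ly6a, Ly6c1, Vwf and Emcn had within-genotype SDs of 0.25 to 0.39 on the log2 scale, above the median of the 32, while Itm2a was at 0.16. Ly6a and Ly6c1 encode small membrane-anchored proteins of brain capillaries. Ly6a ran from 10.5 to 22.8 CPM in WT and from 11.5 to 17.4 in Dp1Tyb, and Ly6c1 from 16.6 to 27.1 and from 15.7 to 22.6. Both were highest in WT 1, and their log2 fold changes were -0.027 ± 0.20 and -0.061 ± 0.13. Vwf, the clotting protein von Willebrand factor, ran from 22.8 to 42.6 CPM in WT and from 23.5 to 38.2 in Dp1Tyb, with WT 1 and Dp1Tyb 1 the highest of their genotypes and a log2 fold change of -0.092 ± 0.15, which became -0.24 with the choroid plexus covariate. Itm2a, a membrane protein enriched in brain endothelium, ran from 37.1 to 50.9 CPM in WT and from 39.7 to 47.6 in Dp1Tyb, a log2 fold change of 0.011 ± 0.086.

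Emcn, the endothelial sialomucin endomucin, had the estimate farthest below 0 of the 20 endothelial genes. Its CPM values were 5.41, 5.57, 6.61, 7.69 and 6.16 in WT 1 to 5 and 4.26, 5.07, 6.52, 4.06 and 5.66 in Dp1Tyb 1 to 5. The lowest values were those of Dp1Tyb 4 and Dp1Tyb 1, the mice with the lowest choroid plexus markers. The log2 fold change of -0.31 ± 0.14 (95% confidence interval -0.62 to -0.0017; edgeR adjusted p = 0.346) became -0.13 with the choroid plexus level as a covariate and -0.14 without these 2 mice. Among the WT mice, the choroid plexus sum was lowest in WT 2, at 429 CPM, whereas Emcn was lowest in WT 1. Plvap is a marker of the fenestrated vessels found in choroid plexus. Its log2 fold change was -0.35 ± 0.14, and -0.17 with the covariate. Whether vessels of the choroid plexus account for the Emcn values was not tested.

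The estimates for the pericyte genes differed in direction. Rgs5 (chr1:169655501-169695813) encodes a regulator of G-protein signalling abundant in pericytes, and it had the smallest p-value of the 32. Rgs5 in WT 1 to 5 was at 86.5, 79.5, 95.97, 91.3 and 98.5 CPM, and in Dp1Tyb 1 to 5 at 99.3, 98.1, 114, 119.8 and 101 CPM. Dp1Tyb 2 was just under the highest WT mouse, WT 5, and the other 4 Dp1Tyb mice were above every WT mouse. The means were 90.4 ± 7.61 in WT and 106 ± 9.69 in Dp1Tyb (SD, n = 5 each), and the log2 fold change was 0.24 ± 0.068 (95% confidence interval 0.089 to 0.38). The edgeR adjusted p of 0.132 did not pass the threshold, and leaving out each mouse in turn gave adjusted p-values of 0.123 to 0.266, whereas DESeq2 called the gene at an adjusted p of 0.0434.

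Pdgfrb (chr18:61045150-61085061), the receptor through which endothelial PDGF-B recruits pericytes, had an estimate of the opposite sign. Its CPM values were 28.8, 29.8, 32.7, 37.4 and 32.6 in WT 1 to 5 and 30.5, 26.4, 27.4, 27.6 and 31.5 in Dp1Tyb 1 to 5. Dp1Tyb 2, 3 and 4 were below every WT mouse and Dp1Tyb 1 and 5 were not, and the log2 fold change of Pdgfrb was -0.17 ± 0.074 (95% confidence interval -0.33 to -0.01; edgeR adjusted p = 0.318). Kcnj8 and Abcc9 encode the pore and the regulatory subunit of the ATP-sensitive potassium channel of pericytes. Abcc9 was at 11.4, 10.2, 9.38, 9.23 and 9.28 CPM in WT 1 to 5 and at 8.53, 8.01, 9.798, 9.51 and 9.17 CPM in Dp1Tyb 1 to 5. The channel genes overlapped between the genotypes, with log2 fold changes of -0.14 ± 0.085 for Abcc9 and -0.20 ± 0.13 for Kcnj8, the latter on only 67 to 132 counts. The Kcnj8 estimate became -0.11 with the choroid plexus covariate and -0.07 without Dp1Tyb 1 and Dp1Tyb 4. Vtn, the matrix protein vitronectin, ran from 58.7 to 73.5 CPM in WT and from 56.8 to 68.8 in Dp1Tyb, a log2 fold change of -0.05 ± 0.069.

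The smooth muscle genes differed more between single mice than between the genotypes. Acta2, smooth muscle actin, had CPM values of 11.3, 11.4, 12.8, 22.6 and 11.8 in WT 1 to 5 and 17.6, 11.7, 11.8, 17.5 and 16.1 in Dp1Tyb 1 to 5. WT 4 stood far above the other WT mice. Tagln, the actin-binding protein transgelin, was at 9.48, 7.78, 10.1, 14.7 and 8.16 CPM in WT 1 to 5 and at 13.5, 10.95, 7.24, 9.66 and 11.04 CPM in Dp1Tyb 1 to 5. Myl9, a myosin light chain of the contractile apparatus, was at 12.6, 10.1, 15.3, 19.9 and 14.04 CPM in WT 1 to 5 and at 16.6, 13.5, 11.5, 12.2 and 13.1 CPM in Dp1Tyb 1 to 5. In all 3 genes WT 4 was the highest of the 10 mice, and the log2 fold changes were 0.091 ± 0.20 for Acta2, 0.061 ± 0.18 for Tagln and -0.10 ± 0.15 for Myl9, with edgeR adjusted p-values of 0.790 to 0.907 and no unadjusted p under 0.05. Their median within-genotype SD was 0.35 on the log2 scale, beside 0.13 over all tested genes.

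The fibroblast genes spread most of all, with a median within-genotype SD of 0.46 on the log2 scale. Col1a1 encodes the first chain of type I collagen and was at 7.71, 6.199, 13.3, 12.5 and 7.46 CPM in WT 1 to 5 and at 8.78, 8.54, 6.12, 8.03 and 10.7 CPM in Dp1Tyb 1 to 5. Col1a2, the partner chain, was at 9.17, 9.61, 24.5, 17.4 and 13.5 CPM in WT 1 to 5 and at 10.3, 10.6, 9.44, 12.4 and 16.5 CPM in Dp1Tyb 1 to 5. In both collagen genes WT 3 and WT 4 were high. Dcn, the collagen-binding proteoglycan decorin, was at 29.4, 23.5, 60.2, 57.9 and 46.7 CPM in WT 1 to 5 and at 53.5, 54.6, 48.5, 62.8 and 49.7 CPM in Dp1Tyb 1 to 5. Lum, its relative lumican, was at 2.46, 2.25, 6.29, 3.996 and 5.41 CPM in WT 1 to 5 and at 3.94, 3.57, 5.04, 3.73 and 4.38 CPM in Dp1Tyb 1 to 5. In both proteoglycan genes WT 1 and WT 2 were below every Dp1Tyb mouse.

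None of the 4 fibroblast genes differed between the genotypes beyond this spread, with log2 fold changes of -0.16 ± 0.20 for Col1a1, -0.32 ± 0.24 for Col1a2, 0.31 ± 0.21 for Dcn and 0.037 ± 0.25 for Lum. Their edgeR adjusted p-values were 0.523 to 0.962, and none had an unadjusted p under 0.05. Their intervals were wide, from -0.84 to 0.20 for Col1a2 and from -0.14 to 0.77 for Dcn, and so include differences of more than 1.5-fold in 1 direction. In WT 1 to 5 the summed fibroblast CPM was 48.8, 41.5, 104, 91.8 and 73.0. The choroid plexus markers of these mice summed to 2859, 429, 5454, 4225 and 5076 CPM. In Dp1Tyb 1 to 5 the fibroblast sum was 76.5, 77.2, 69.1, 86.9 and 81.3 CPM. The choroid plexus sum of these mice was 42.9, 1451, 3884, 51.3 and 3713 CPM. Dcn was the largest part of the fibroblast sum in every mouse, and the relation of the sums was not tested. With the choroid plexus level as a covariate the estimates became -0.038 for Col1a1, -0.12 for Col1a2, 0.41 for Dcn and 0.30 for Lum.

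**Figure D3:**
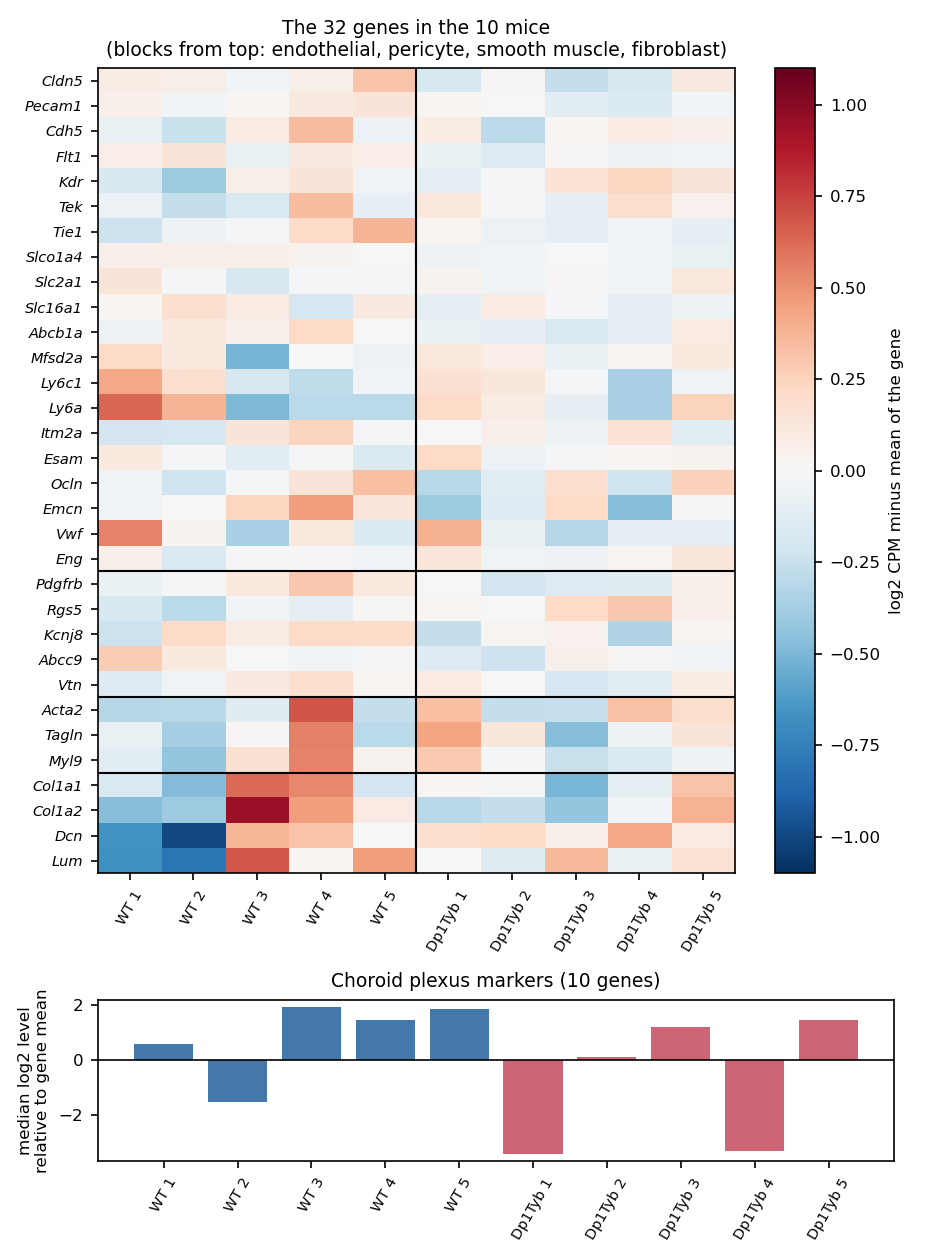
Log2 CPM of the 32 genes (rows, by class) in the 10 mice (columns) minus the mean of each gene over the mice, as colour, above the median log2 level of the 10 choroid plexus markers relative to their gene means, as bars. WT 4 is high in the smooth muscle block, WT 1 and WT 2 are low and WT 3 and WT 4 high in the fibroblast block, while the marker bars of Dp1Tyb 1 and Dp1Tyb 4 fall to -3.41 and -3.33.

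Levels of different genes were compared per exon length, as RPKM, the CPM divided by the exon length in kilobases. They are given with the SD over the 10 mice. The length is that of all annotated exons of a gene merged, 12426 bases for Col1a2, so the order of the genes depends on the annotation. Vtn was highest at 31.9 ± 2.65 RPKM, followed by Itm2a at 24.8 ± 2.600, Cldn5 at 24.7 ± 2.89 and Rgs5 at 21.6 ± 2.595, and Itm2a and Cldn5 did not differ beyond their spread. Slc2a1 was next at 19.4 ± 1.17 RPKM. At the low end were Emcn at 1.05 ± 0.204 RPKM, Col1a2 at 1.07 ± 0.392 and Abcc9 at 1.13 ± 0.109.

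How the genes varied together across mice was examined for the 209 pairs of genes within a class, over the 10 mice of both genotypes, which share library depth and scaling. The median Pearson's r was 0.06 for the 190 endothelial, -0.18 for the 10 pericyte, 0.79 for the 3 smooth muscle and 0.62 for the 6 fibroblast pairs. Single mice weighed on the latter 2 classes. For Acta2 and Myl9 r fell from 0.68 to 0.11 without Dp1Tyb 1 and WT 4. For Dcn and Lum r fell from 0.76 to -0.26 without WT 1 and WT 2. Only the pair of Tek and Slc16a1 kept an adjusted permutation p under the threshold, with opposite levels: r was -0.93 (permutation p = 0.00013, adjusted p = 0.0272 over the 209 pairs), Spearman's rho was -0.84 (permutation p = 0.00382, adjusted p = 0.213) and r without Dp1Tyb 4 and WT 4 was -0.87. Ly6c1 and Ly6a varied together with r of 0.88 (permutation p = 0.00112, adjusted p = 0.078), rho of 0.81 (permutation p = 0.00773, adjusted p = 0.213) and r of 0.80 without Dp1Tyb 4 and WT 1. For the collagen chains Col1a1 and Col1a2 r was 0.87 (permutation p = 0.00095, adjusted p = 0.078), rho was 0.77 (permutation p = 0.0123, adjusted p = 0.213) and r was 0.68 without WT 3 and WT 4. For Tagln and Myl9 r was 0.84 (permutation p = 0.00254, adjusted p = 0.110), rho was 0.78 (permutation p = 0.0110, adjusted p = 0.213), and r dropped to 0.58 without Dp1Tyb 1 and WT 4, so that much of this relation rests on those mice.

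Further genes of the vessel wall were followed by lists of their pathways. These lists, like the marker lists below, were chosen with earlier results of these data known. Their counts therefore only describe the listed genes and are no test against the shares of all genes. Of all tested genes, edgeR called 1.11%, 14.4% had an unadjusted p under 0.05 and 8842 of 17237 estimates were below 0. Of 28 other endothelial genes, 1 was called, with 3 at an unadjusted p under 0.05. The called gene was Podxl, which encodes podocalyxin, a sialomucin of the luminal surface. Podxl was at 53.6, 48.8, 42.1, 50.01 and 43.6 CPM in WT 1 to 5 and at 40.2, 37.6, 39.3, 37.7 and 35.6 CPM in Dp1Tyb 1 to 5. Every Dp1Tyb mouse was below every WT mouse, and the log2 fold change was -0.32 ± 0.065 (edgeR adjusted p = 0.0287). The call was lost, at an adjusted p of up to 0.089, when Dp1Tyb 2, 3, 4 or 5 or WT 1, 2 or 4 was left out. Slco2b1, another anion transporter, had the next smallest p in that list, with a log2 fold change of -0.22 ± 0.07 (edgeR adjusted p = 0.170).

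In the VEGF and angiopoietin pathway 0 of 14 genes were called, and 0 were called by DESeq2. At an unadjusted p under 0.05 there were 3, beside 14.4% of all tested genes. The smallest p-values were those of the co-receptors Nrp2, at 0.16 ± 0.055, and Nrp1, at 0.11 ± 0.044 on the log2 scale. Of 16 genes of the Wnt and Norrin pathway, which induces and maintains the barrier, 0 were called by edgeR and 13 had estimates below 0. At an unadjusted p under 0.05 there were 3, near the share of 14.4% of all tested genes. Most estimates were also below 0 in other lists: 21 of 28 other endothelial, 11 of 13 junction, 14 of 19 mural and 12 of 18 stromal genes. In the VEGF and angiopoietin list they were 7 of 14. Axin2, a target and inhibitor of Wnt signalling, was at 22.9, 22.6, 25.6, 21.9 and 25.3 CPM in WT 1 to 5 and at 19.1, 21.9, 18.5, 18.3 and 18.7 CPM in Dp1Tyb 1 to 5. Dp1Tyb 2 reached the lowest WT value and the other 4 Dp1Tyb mice were below it, and the log2 fold change was -0.29 ± 0.068 (edgeR adjusted p = 0.0585, and 0.00522 by DESeq2). Without Dp1Tyb 2 edgeR called it as well, at an adjusted p of 0.0326. The Wnt transcription factor Lef1 had a log2 fold change of -0.32 ± 0.097 (edgeR adjusted p = 0.161).

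Of 13 other junction genes, 0 were called by edgeR or DESeq2, with 1 at an unadjusted p under 0.05, and the smallest p-values were those of Lsr, at -0.51 ± 0.16, and Cldn3, at -1.22 ± 0.57 on the log2 scale on 6 to 54 counts. With the choroid plexus level as a covariate their estimates became -0.31 and -0.44. Of 19 tested mural genes 0 were called by edgeR, with 3 at an unadjusted p under 0.05, again near the share of all tested genes, and the smallest p-values were those of the transcription factor Zic1, at -0.54 ± 0.15 (edgeR adjusted p = 0.129, and 0.0159 by DESeq2), and of Anpep, aminopeptidase N of pericytes, at -0.46 ± 0.14 (edgeR adjusted p = 0.150). Without Dp1Tyb 3 edgeR called Zic1, at an adjusted p of 0.0474. Of 18 stromal genes, 1 was called, beside 1.11% of all tested genes, and it was the only 1 at an unadjusted p under 0.05. This gene was Cemip, which encodes a hyaluronan-binding protein. Cemip was at 46.3, 49.2, 46.4, 49.9 and 42.6 CPM in WT 1 to 5 and at 38.9, 37.1, 35.8, 39.99 and 38.3 CPM in Dp1Tyb 1 to 5. The groups did not overlap, the log2 fold change was -0.30 ± 0.051 (edgeR adjusted p = 0.00967), and the call held whichever mouse was left out, with adjusted p-values of 0.00406 to 0.0379. Ogn, osteoglycin, was next at -0.40 ± 0.25 on the log2 scale. Cemip was at 49.2 CPM in WT 2, which had the lowest sum of the stromal list, 245 CPM. It was at 46.4 CPM in WT 3, which had the highest sum, 538 CPM. The cell type that gave the Cemip values was not tested.

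None of the 32 genes lies in the duplicated segment, but 6 genes picked for roles in vessels do. They are not a full count of such genes, and the cell types that gave their values were not tested. Of the 6 genes, 4 were called higher, against 59.6% of the 114 tested genes of the segment. Jam2, a junctional adhesion molecule, was at 40.98, 46.6, 39.3, 41.1 and 42.1 CPM in WT 1 to 5 and at 68.3, 75.1, 68.3, 65.6 and 65.7 CPM in Dp1Tyb 1 to 5, a log2 fold change of 0.71 ± 0.053 (edgeR adjusted p = 6.10e-06). Adamts1, a matrix protease that restrains angiogenesis, ran from 23.9 to 29.4 CPM in WT and from 36.2 to 45.3 in Dp1Tyb, a log2 fold change of 0.64 ± 0.082. Rcan1, an inhibitor of calcineurin, ran from 39.02 to 39.9 CPM in WT and from 53.2 to 61.6 in Dp1Tyb, a log2 fold change of 0.56 ± 0.045. The transcription factor Ets2 ran from 69.8 to 74.3 CPM in WT and from 100.1 to 113 in Dp1Tyb, a log2 fold change of 0.53 ± 0.04. In these 4 genes every Dp1Tyb mouse was above every WT mouse. Adamts5, a related protease, did not pass the test, at 0.41 ± 0.23 on 32 to 90 counts. Erg, an endothelial ETS factor, was at 5.04, 4.74, 3.795, 5.75 and 5.18 CPM in WT 1 to 5 and at 5.04, 4.65, 4.599, 5.06 and 5.25 CPM in Dp1Tyb 1 to 5. The means of Erg were 4.900 ± 0.718 in WT and 4.92 ± 0.281 in Dp1Tyb (SD, n = 5 each), and the interval of its log2 fold change, -0.24 to 0.23, did not reach 1.5-fold.

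**Figure D4:**
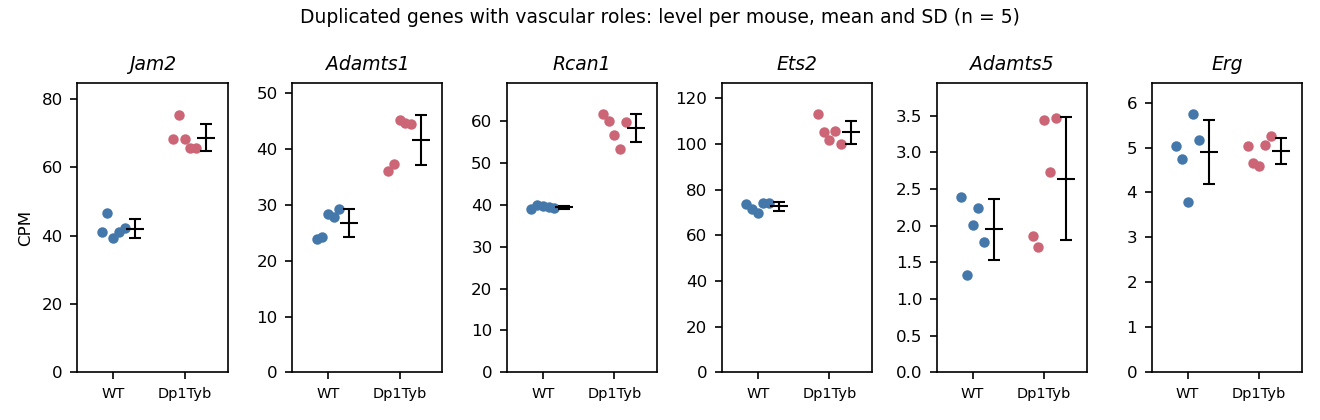
CPM per mouse (y axis, from 0) of 6 duplicated genes picked for vascular roles. Points are WT and Dp1Tyb replicates 1 to 5 from left to right, and a bar gives the mean and SD (n = 5). Jam2, Adamts1, Rcan1 and Ets2 separate the genotypes; Erg does not, at 3.795 to 5.75 CPM in WT and 4.599 to 5.25 CPM in Dp1Tyb.

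Other cell types of the tissue were read from marker lists, with edgeR calls. Of all tested genes, edgeR called 1.11% and 14.4% had an unadjusted p under 0.05, while DESeq2 called 3.20% of those it tested. Of the 10 choroid plexus markers 0 were called and 0 had an unadjusted p under 0.05, though all 10 estimates were below 0, with a median of -0.95. The markers of fenestrated endothelium summed to 7.71 to 10.6 CPM in WT and 5.27 to 9.08 in Dp1Tyb, with 0 of 2 called and 1 at an unadjusted p under 0.05, Plvap. Perivascular macrophage markers summed to 3.54 to 8.29 CPM in WT and 2.999 to 5.35 in Dp1Tyb, with 0 of 4 tested genes called and 0 at an unadjusted p under 0.05. Blood markers summed to 43.0 to 93.2 CPM in WT and 33.4 to 67.1 in Dp1Tyb, with 0 of 5 called and 1 at an unadjusted p under 0.05. Among 5 ependymal, 5 oligodendrocyte, 5 microglial and 6 hippocampal markers 0 were called, with 3, 1, 1 and 3 at an unadjusted p under 0.05. Those of the ependymal and oligodendrocyte lists were higher in Dp1Tyb, and those of the microglial and hippocampal lists were lower. DESeq2 called 2 of the ependymal markers higher. Neuronal markers summed to 5170 to 5505 CPM in WT and to 5680 to 5946 in Dp1Tyb, ranges that did not overlap. Of these 6 markers 3 had an unadjusted p under 0.05, all higher in Dp1Tyb, and DESeq2 called 2 while edgeR called 1, Stmn2, at a log2 fold change of 0.21 ± 0.043. Astrocyte markers summed to 3774 to 4504 CPM in WT and to 4058 to 4384 in Dp1Tyb, with 3 of 6 at an unadjusted p under 0.05, all higher in Dp1Tyb, 2 called by DESeq2 and 1 by edgeR, Gfap, at a log2 fold change of 0.26 ± 0.047. With the choroid plexus level as a covariate, 13 of the 32 vascular estimates moved by over 1.5 times, 1 of them, that of Ocln, across 0. Such a ratio also counts small shifts of estimates near 0. Among the 13 were Emcn, from -0.31 ± 0.14 to -0.13, and Cdh5, from -0.024 ± 0.11 to -0.013. The part of these cells in the values of the vascular genes was not tested beyond the choroid plexus covariate.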

How the data were processed

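RNA of the total hippocampus of 5 Dp1Tyb and 5 WT mice was read from stranded poly(A) libraries as paired ends of 75 bases. Per the labels and methods, the authors trimmed reads with Trim Galore, aligned them to GRCm38 with TopHat2 2.0.12, discarded reads aligning to several places and counted reads per gene with HTSeq. The deposited counts are whole numbers, not normalized, and 18227684 to 43692270 per library. The authors' normalized table and their DESeq2 1.6.3 comparison (fold changes and p-values) were not used. Intervals reflect the spread between mice; nothing in the labels gives a batch.

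Genotypes came from the sample titles. Gene names and positions came from GENCODE M21 on GRCm38. Genes were filtered with filterByExpr and scaled by TMM, and genotype was tested with the quasi-likelihood F-test of edgeR 4.0.16 in R 4.3.3, with DESeq2 1.42.0 and limma 3.58.1 as alternatives; the fit was tested on simulated data. CPM use TMM library sizes. Pairs of genes were correlated on log2 CPM with 100000 permutations. The members and gene lists were chosen with earlier results of these data known. Values per mouse are given for any of the 32 genes that edgeR called (none was), the 3 endothelial and 3 pericyte genes with the smallest p, all smooth muscle and fibroblast genes, and Cldn5, Pecam1, Cdh5, Slc2a1 and Pdgfrb; of each pathway list every called gene and the 2 with the smallest p are named. Values per mouse of Emcn, Podxl, Cemip, Axin2, Jam2 and Erg were added after their values were seen. Alternatives were another scaling, test or count filter, a replicate block, a choroid plexus covariate, TMM without duplicated genes and each mouse left out.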

Additional observations from a re-analysis of the deposited data

Results flagged for a closer look

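In each genotype, the highest and the lowest mouse were compared with the nearest other mouse for the 32 vascular genes and the named genes of the pathway lists. The gap as a share of the whole range of the genotype passed the 95% limit of Dixon's test in 6 of 96 groups of 5, where chance would give about 4.8. For Acta2 in WT the share was 0.862, with WT 4 at 22.6 CPM and the others at 11.3 to 12.9. For Cdh5 in Dp1Tyb it was 0.780, with Dp1Tyb 2 at 11.5 CPM and the others at 14.2 to 14.97. For Tek in WT it was 0.713, with WT 4 at 20.6 CPM and the others at 13.6 to 15.6. For Vwf in Dp1Tyb it was 0.714, with Dp1Tyb 1 at 38.2 CPM and the others at 23.5 to 27.7. For Axin2 in Dp1Tyb it was 0.779, with Dp1Tyb 2 at 21.9 CPM and the others at 18.3 to 19.1. For Jam2 in Dp1Tyb it was 0.711, with Dp1Tyb 2 at 75.1 CPM and the others at 65.6 to 68.3.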

How the results depend on the processing

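Of 608 values of the 32 vascular genes under 19 alternatives, 578 kept their direction and side of the threshold, 2 became calls and 28, in 12 genes, changed sign; the causes were not tested. Both new calls were Rgs5, by DESeq2 and with the replicate block, which gave 1 called member each. The limit for a class median was the within-genotype SD between mice, which is wide. The pericyte median kept within it, at an SD of 0.098, in going from -0.14 to -0.07 without Dp1Tyb 1 and Dp1Tyb 4. All 4 class medians moved by less than their SD in every alternative. Those of the endothelial and pericyte genes stayed below 0 in all, while the smooth muscle median ran from -0.054 to 0.25 with a mouse left out and was -0.10 without Dp1Tyb 1 and Dp1Tyb 4, and the fibroblast median ran from -0.20 to 0.11 with a mouse left out and was 0.026 with limma-voom and 0.13 with the choroid plexus covariate. Genes called over the whole table were 191, and 507 with DESeq2, 315 with the replicate block and 120 without Dp1Tyb 1 and Dp1Tyb 4, an alternative chosen after seeing the data. Leaving out each mouse gave 105 to 218, with 105 without Dp1Tyb 2, 105 without WT 4, 111 without Dp1Tyb 3 and 127 without WT 5. Of the 32 genes and the 115 genes of the pathway lists together, 6 were called, beside 1.11% of all tested genes. Of these calls 4 were duplicated genes, of a segment where 59.6% of the tested genes were called higher, and the others were Podxl and Cemip. The count was 5 to 6 with a mouse left out and 5 to 9 in the other alternatives.

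Of 303 values of the 16 named genes of the lists, 289 kept their direction and side, 8 lost a call, all of Podxl, and 6 became calls, of Axin2, Zic1 and Cldn3; none changed sign. With the replicate block edgeR called Rgs5 at an adjusted p of 0.0369, Zic1 at 0.0187 and Cldn3 at 0.0480. Whether the numbers pair the mice is not known. Same-numbered mice correlated at 0.194, -0.051, 0.206, -0.076 and 0.266 in their deviations from the genotype means. No Dp1Tyb mouse correlated best with its own number, but such correlations cannot exclude a pairing.

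Among the genes whose sign changed, the estimate largest in size was that of Myl9, -0.10. The median size over the 32 genes was 0.092. With a mouse left out the log2 fold changes spanned -0.087 to 0.072 for Cdh5, -0.0092 to 0.069 for Slc2a1, -0.018 to 0.15 for Mfsd2a, -0.13 to 0.057 for Ly6c1, -0.13 to 0.17 for Ly6a, -0.040 to 0.081 for Itm2a, -0.22 to 0.058 for Vwf, -0.054 to 0.25 for Tagln, -0.21 to 0.048 for Myl9 and -0.11 to 0.23 for Lum. Ly6a was 0.011 with the replicate block, and Ocln 0.087 with the choroid plexus covariate. Without Dp1Tyb 1 and Dp1Tyb 4, Ly6a was 0.017, Itm2a -0.039, Ocln 0.060, Acta2 -0.10 and Tagln -0.055.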
